A study of Homo sapiens with 24 samples.

Results

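Long intergenic non-coding RNAs (lincRNAs) are described here in 2 lines of acute myeloid leukemia (AML) treated with an 8-substituted adenosine analog, 8-chloro-adenosine (8CA) or 8-amino-adenosine (8AA). The members are the genes whose symbol is LINC followed by digits and whose raw read counts summed over all libraries reached at least 240. They numbered 102 of the 569 genes with such a symbol, in a table of 23354 genes. Of the other 467, 252 had no read in any library. The members were thus selected on their summed counts, which are given as a description: they ran from 240 to 48410 with a median of 1964.5, and 67 members had at least 1000. Just inside the minimum were LINC01138 with 240 reads, LINC00304 with 252 and LINC00950 with 253, and just outside it were 1 gene with 229, LINC00426 with 211 and LINC01305 with 202.

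MV4-11 and KG-1a cells, both recorded as wild type in genotype, were left untreated or given 1 µM 8CA or 1 µM 8AA, and RNA was sequenced at 8 h and at 24 h. There were 12 groups and 24 libraries, so that a group had replicates A and B. Both lines are long-established leukemia cultures: MV4-11 is monoblastic and carries a KMT2A rearrangement and a FLT3 internal tandem duplication, and KG-1a is an immature variant of the myeloid line KG-1. The sources do not say whether the 2 libraries of a group came from separate cultures, so the p-values measure the spread between these libraries. In each line the 8CA and 8AA groups of one time were set against the same 2 untreated libraries, so the results of both drugs share that control. Lower counts from fewer cells of a type and from less RNA per cell cannot be told apart in bulk RNA.

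A lincRNA is transcribed from DNA between protein-coding genes, usually by RNA polymerase II, and is often capped, spliced and polyadenylated like an mRNA. Many lincRNAs stay in the nucleus, act on nearby genes through the act of transcription or as scaffolds for proteins, and are turned over by the nuclear RNA exosome. They tend to be less abundant and more restricted to a cell type than mRNAs. 8CA and 8AA are nucleoside analogs that cells phosphorylate to ATP analogs, and they are known to inhibit RNA synthesis and polyadenylation.

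Libraries held 18633963 to 24520078 counted reads. The members took a small share of them, 0.0762% to 0.134%, and 5 members supplied 32.5% of all member reads. The cell identity of each line was checked on its markers by mean CPM (read counts scaled to library size) per kb of exon over the untreated libraries. FLT3, LYZ and CD33 stood at 118, 2170 and 19.7 in MV4-11 against 0.139, 0.448 and 0.105 in KG-1a, and CD34 stood at 0.0134 against 109. HOXA9 was lower in MV4-11 (3.74) than in KG-1a (11.8), and MEIS1 was 14.5 against 0. KG-1a also had 349 for CD3D and 15.6 for CD3E, genes of the T cell receptor complex, which had no read in untreated MV4-11; their part in the results was not tested. Of the other 9 markers, for B cells, epithelium, fibroblasts and red cells, 6 were at 0 in both lines and none passed 1.89 in either.

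RefSeq gave a current entry for 102 of the 102 members, 25 of them under another symbol, so several of these names are old. As many as 92 were long non-coding RNAs in RefSeq, 1 was a transcribed pseudogene (LINC01225, now LDC1P) and 9 were protein coding. The coding ones include LINC00998, now SMIM30, which makes a small membrane protein, and LINC00116, now MTLN, which makes the mitochondrial micropeptide mitoregulin. LINC00094 is now BRD3OS, an opposite-strand neighbor of BRD3. Members had a median exon length of 2.723 kb, close to 2.785 kb for all genes, but spanned a median of 8.913 kb against 20.124 kb. By the positions in the table, 20.8% of members overlapped another gene, against 33.8% of all genes, once the 37 rows that span over 2500 kb were set aside because they join separate loci. Of the members, 14 overlapped a gene on the same strand and 9 on the opposite strand, and whether the counting used strand is not given in the sources used here.

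Most members differed in level between the untreated lines, as did most genes. On the scale of CPM per kb of exon (n = 4 untreated libraries per line), the median member stood at 0.764 in MV4-11 and 0.929 in KG-1a, while the median of all tested genes stood at 6.87 and 7.28. Above 1 on this scale were 46 members in MV4-11 and 50 in KG-1a. The untreated libraries of the lines did not overlap for 83 of 102 members. The share over all genes is not given for this count, which is a description only. By the quasi-likelihood test of edgeR, adjusted over all genes after Benjamini and Hochberg, as is every adjusted p below, 40 members were called higher in MV4-11 and 51 lower at adjusted p below 0.05. The share of all 14055 tested genes called higher was 43.1%, and 44.3% were called lower, so the members were near the background here. Of the members, 7 passed the filter on low counts in MV4-11 only and 13 in KG-1a only. These were tested between the lines only through the line where they are high, and their calls are a description.

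**Figure D1:**
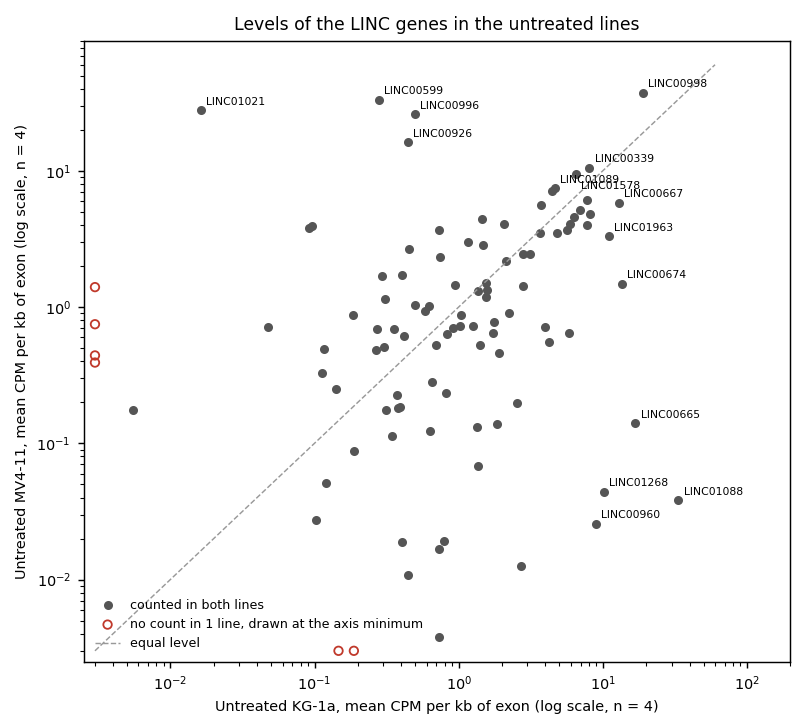
Mean level of each of the 102 members in untreated MV4-11 (vertical) against untreated KG-1a (horizontal), in CPM per kb of exon on log axes, n = 4 libraries per line; open red circles are the 6 members with no count in 1 line, drawn at the axis minimum. Points lie far from the diagonal on both sides, with LINC01021 and LINC00599 at the MV4-11 side and LINC01088 and LINC00960 at the KG-1a side.

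In MV4-11 the highest levels per kb were those of LINC00998 (37.3 ± 4.70, SD, n = 4), LINC00599 (33.2 ± 2.28), LINC01021 (27.9 ± 2.44), LINC00996 (25.9 ± 1.14) and LINC00926 (16.2 ± 0.349). LINC00599 is the host of the microRNA miR-124-1, and LINC01021, also called PURPL, is a transcript induced by p53. In this order LINC00998 and LINC00599 overlapped in their libraries (31.8 to 42.1 against 30.0 to 35.1), as did LINC01021 (24.3 to 29.5) and LINC00996 (24.4 to 27.1), whereas LINC00926 (15.7 to 16.4) lay below all 4. LINC00339 (10.5 ± 1.26), LINC01578 (9.46 ± 0.626) and LINC01089 (7.46 ± 0.317) came next. In KG-1a the highest were LINC01088 (33.3 ± 5.44), LINC00998 (18.9 ± 0.869), LINC00665 (16.8 ± 0.576), LINC00674 (13.5 ± 0.510) and LINC00667 (12.9 ± 0.236). LINC01963 (11.0 ± 0.375), LINC01268 (10.2 ± 2.04) and LINC00960 (8.92 ± 0.550) followed, and the libraries of LINC01268 (7.86 to 12.2) overlapped both of its neighbors, unlike those of the first 5 members, none of which overlapped. LINC00998 alone was among the first 2 in both lines.

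Several members were near absent from 1 line. LINC01021 had 5303 reads over the 4 untreated MV4-11 libraries and 3 over those of KG-1a. LINC00599 had 7996 against 66. LINC01088 ran the other way, with 5 reads in MV4-11 and 4171 in KG-1a, and so did LINC00960 (3 and 1026) and LINC01268 (10 and 2231). LINC00051, LINC00477, LINC00482 and LINC00565 had no read in untreated KG-1a, which at a floor of 3 counts per library makes them at least 9.16-fold, 8.00-fold, 7.28-fold and 6.85-fold higher in MV4-11. LINC00689 and LINC01123 had none in untreated MV4-11 and were at least 7.55-fold and 7.42-fold higher in KG-1a. Apart from LINC00599, all these members passed the filter on low counts only in the line where they are high. Their differences are a description. LINC01268, also called MROCKI, lies beside MARCKS, a gene of membrane and actin signaling, at 4.527 kb.

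After 24 h, treatment with either drug was followed by higher levels of many lincRNAs and lower levels of few, in both lines. Values are scaled to the counts of each library, so a rise is relative to the other RNA and not an amount per cell. In MV4-11, 89 members passed the filter on low counts. With 8CA, 37 rose and 4 fell (background over all genes 21.2% higher and 22.7% lower, members 41.6% and 4.49%). With 8AA, 33 rose and none fell (background 13.9% and 15.3%, members 37.1% and 0%). In KG-1a, 95 members passed. With 8CA, 42 rose and 6 fell (background 23.4% and 24%, members 44.2% and 6.32%). With 8AA, 46 rose and 8 fell (background 25.4% and 26.6%, members 48.4% and 8.42%). Among the 33 is LINC00672, and among the 46 are LINC01225 and LINC01226. Each passed the filter in that line only through the 8AA libraries at 24 h, where it is high, and is counted as a description. Across all genes, higher and lower calls were thus about equal in number, while among the members higher calls prevailed in each comparison.

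Tested members had a median log2 fold change of 0.37, 0.39, 0.42 and 0.50 in these comparisons in the order given, against medians of all genes between 0.00 and 0.01. Both treated libraries exceeded both untreated ones for 53, 59, 62 and 64 members, and both were below for 7, 2, 7 and 11. Most changes were small: called changes beyond 1 on the log2 scale numbered 3, 2, 8 and 17. The shares over all genes are not given for these counts or for those of separated libraries. Both are a description only. The counts in MV4-11 leaned on single libraries. With 8CA the called members fell from 41 to 26 without untreated replicate A, 27 without untreated replicate B and 26 without 8CA replicate A, and under 8AA from 33 to 20 without untreated replicate A and 15 without 8AA replicate A. DESeq2 called 25 in place of 41 and 17 in place of 33, but it gave an adjusted p to only 77 of the 89 members in each.

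**Figure D2:**
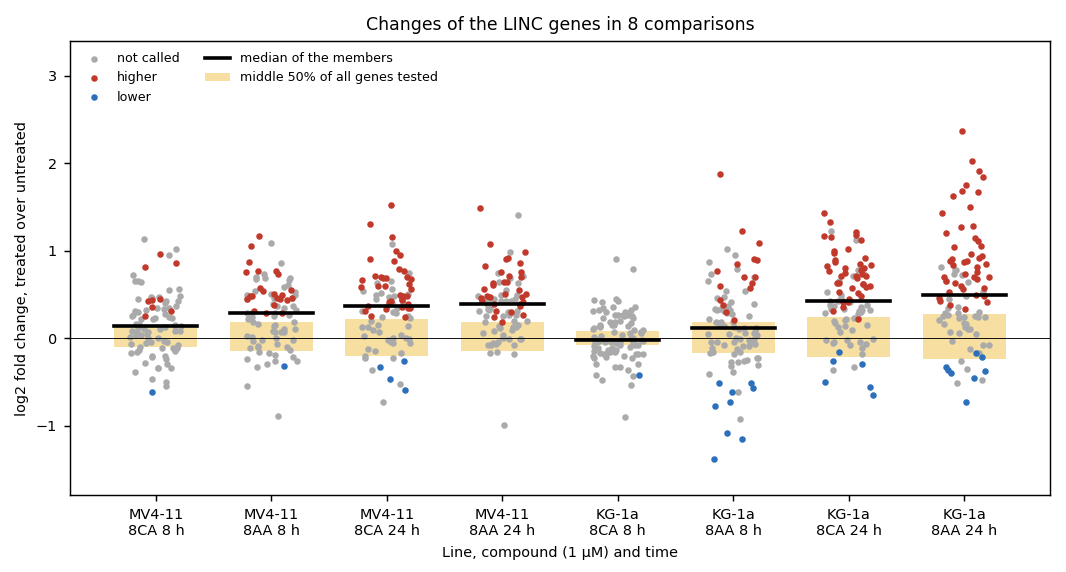
Log2 fold change of each tested member against untreated cells of the same line and time, for the 8 comparisons; points are members called higher (red), called lower (blue) or not called (gray), the black line is the median of the members and the yellow band the middle 50% of all genes. At 24 h the member medians of 0.37 to 0.50 lie above the middle of the band, and at 8 h the medians are -0.02 to 0.29.

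The share of all counted reads that came from members rose along with these calls. In untreated MV4-11 at 24 h it was 0.0772% and 0.0762% in replicates A and B, under 8CA 0.104% and 0.0955%, and under 8AA 0.103% and 0.0940%. In untreated KG-1a it was 0.0931% and 0.0916%, under 8CA 0.112% and 0.115%, and under 8AA 0.127% and 0.134%. Each treated library lay above both untreated ones. The replicates of KG-1a under 8AA at 24 h differed more from each other than any other pair, with a chi-square per degree of freedom of 12.25 over genes against 1.432 to 5.201 in the other 11 groups. Without its replicate A or B, 51 or 52 members were called in place of 54.

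By level, the excess of higher calls was clearest among the most abundant members in MV4-11 but not in KG-1a under 8CA. There, 9 of 19 members with a mean log2 CPM above 4 rose and 4 fell, with 24.9% and 31.4% of all genes. From 2 to 4 it was 16 of 26 and 2, with 26.5% and 14.4%. Under 8AA in KG-1a, 13 of 21 rose from 1 to 2, with 32.7% of all genes. Among members with a mean above 4 on the log2 CPM scale, 9 of 13 rose under 8CA in MV4-11 at 24 h and 11 of 19 under 8AA in KG-1a, where 22.4% and 24.1% of all genes at such levels rose. In the latter, 6 of the 19 fell, with 34.9% of all genes. In the band from 2 to 4, 17 of 30 and 13 of 26 members rose, with 26.3% and 32.9% of all genes. Below 0, 2 of 16 and 4 of 13 members were called higher, and 7.53% and 17.2% of all genes. Under 8AA in MV4-11 it was 1 of 16 below 0, with 6.4% of all genes, so that few of the scarcest members were called there. Their median log2 changes were above those of all genes all the same. Below 0 these were 0.379 against 0.0735 and 0.423 against 0.226 under 8CA and 8AA in MV4-11. In KG-1a they were 0.655 against 0.239 and 0.734 against 0.319. Above 4 the medians, in that order, were 0.339 against -0.0257, 0.307 against -0.0332, 0.222 against -0.0255 and 0.375 against -0.0446.

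9 members rose in all 4 comparisons at 24 h, of the 82 tested in both lines, and none fell in all of them. The background was 4.01% of 11485 genes higher in each and 7.64% lower in each, and for the members 11% and 0%. They were LINC00663, LINC00674, LINC00847, LINC00921, LINC00938, LINC00996, LINC01000, LINC01089 and LINC01341. The count was 4 without MV4-11 untreated replicate A at 24 h, 5 without MV4-11 8AA replicate A, and 4 with DESeq2.

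RefSeq promoters of 300 bases, 250 before and 50 after the transcription start in build GRCh38.p14, were at hand for 79 members. They are printed for the 6 of these 9 members that have one, because these genes moved together, and for LINC00998 and LINC00116, which moved the other way in KG-1a. Each reads 5′ to 3′ on the gene's strand, and capitals mark, on either strand, the letters TATAAA of a TATA box, CCAAT of an NF-Y element, GGGCGG of a GC box, CACGTG of an E-box and TGACGTCA of a cAMP response element.
LINC00674 (chr17:68101305-68101604, plus strand): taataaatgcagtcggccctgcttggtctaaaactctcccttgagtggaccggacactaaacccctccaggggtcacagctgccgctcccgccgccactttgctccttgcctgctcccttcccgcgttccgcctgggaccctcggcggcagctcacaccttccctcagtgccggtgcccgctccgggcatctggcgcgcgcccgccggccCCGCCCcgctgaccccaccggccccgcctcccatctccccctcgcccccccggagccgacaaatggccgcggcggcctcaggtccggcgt
LINC00847 (chr5:180830707-180831006, plus strand): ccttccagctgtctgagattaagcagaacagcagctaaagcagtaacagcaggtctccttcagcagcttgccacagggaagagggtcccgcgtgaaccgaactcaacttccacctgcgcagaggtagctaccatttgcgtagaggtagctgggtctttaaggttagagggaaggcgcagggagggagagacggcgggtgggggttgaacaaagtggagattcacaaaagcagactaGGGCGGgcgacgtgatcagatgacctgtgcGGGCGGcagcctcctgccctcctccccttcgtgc
LINC00938 (chr12:45727872-45728171, minus strand): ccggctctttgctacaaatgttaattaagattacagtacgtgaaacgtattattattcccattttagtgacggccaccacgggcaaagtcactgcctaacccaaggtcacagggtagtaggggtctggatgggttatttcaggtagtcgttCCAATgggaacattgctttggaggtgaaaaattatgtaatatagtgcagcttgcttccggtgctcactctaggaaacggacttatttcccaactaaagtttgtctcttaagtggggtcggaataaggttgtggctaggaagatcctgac
LINC00996 (chr7:150433404-150433703, plus strand): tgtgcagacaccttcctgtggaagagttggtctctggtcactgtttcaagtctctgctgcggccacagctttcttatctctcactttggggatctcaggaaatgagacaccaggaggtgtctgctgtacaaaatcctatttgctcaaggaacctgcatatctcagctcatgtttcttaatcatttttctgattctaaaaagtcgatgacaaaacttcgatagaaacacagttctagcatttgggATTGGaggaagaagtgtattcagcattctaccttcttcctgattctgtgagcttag
LINC01089 (chr12:121802897-121803196, minus strand): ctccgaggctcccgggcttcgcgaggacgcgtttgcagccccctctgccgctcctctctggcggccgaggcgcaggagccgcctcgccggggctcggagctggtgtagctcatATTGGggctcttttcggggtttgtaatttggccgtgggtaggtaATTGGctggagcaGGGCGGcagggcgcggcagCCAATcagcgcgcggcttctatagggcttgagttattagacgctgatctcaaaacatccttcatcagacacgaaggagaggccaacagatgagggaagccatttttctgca
LINC01341 (chr1:246789367-246789666, plus strand): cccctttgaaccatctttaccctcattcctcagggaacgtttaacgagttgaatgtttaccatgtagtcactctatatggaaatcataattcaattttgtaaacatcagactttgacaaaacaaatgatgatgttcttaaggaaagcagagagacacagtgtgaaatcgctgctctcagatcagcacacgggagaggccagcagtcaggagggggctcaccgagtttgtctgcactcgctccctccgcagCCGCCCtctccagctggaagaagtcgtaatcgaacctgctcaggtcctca
LINC00998 (chr7:113118505-113118804, minus strand): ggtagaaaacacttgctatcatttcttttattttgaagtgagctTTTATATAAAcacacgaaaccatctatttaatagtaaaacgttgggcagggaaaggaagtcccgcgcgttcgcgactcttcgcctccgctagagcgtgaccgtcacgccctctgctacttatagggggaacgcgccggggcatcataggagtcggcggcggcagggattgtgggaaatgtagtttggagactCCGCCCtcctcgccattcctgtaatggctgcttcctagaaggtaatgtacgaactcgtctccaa
LINC00116 (chr2:110212498-110212797, minus strand): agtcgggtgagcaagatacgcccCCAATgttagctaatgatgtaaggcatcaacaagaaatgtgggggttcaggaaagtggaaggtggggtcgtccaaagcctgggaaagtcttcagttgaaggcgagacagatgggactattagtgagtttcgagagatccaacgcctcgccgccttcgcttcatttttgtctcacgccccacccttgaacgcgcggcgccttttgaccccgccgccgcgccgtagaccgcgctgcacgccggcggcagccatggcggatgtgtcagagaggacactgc

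In these windows LINC00938, LINC00996 and LINC00116 held the NF-Y letters, LINC00674, LINC00847 and LINC01341 the GC box letters, and LINC01089 both. LINC00998 held those of a TATA box and a GC box. Among the 79 members, the NF-Y letters on either strand were found in 48.1%, against 34.6% of 35116 RefSeq promoters of that length. The GC box letters were found in 45.6% against 45.0%, those of the TATA box in 8.86% against 11.5%, of the E-box in 7.59% against 7.26% and of the cAMP response element in 2.53% against 1.85%. The letters describe the windows and show no binding.

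**Figure D3:**
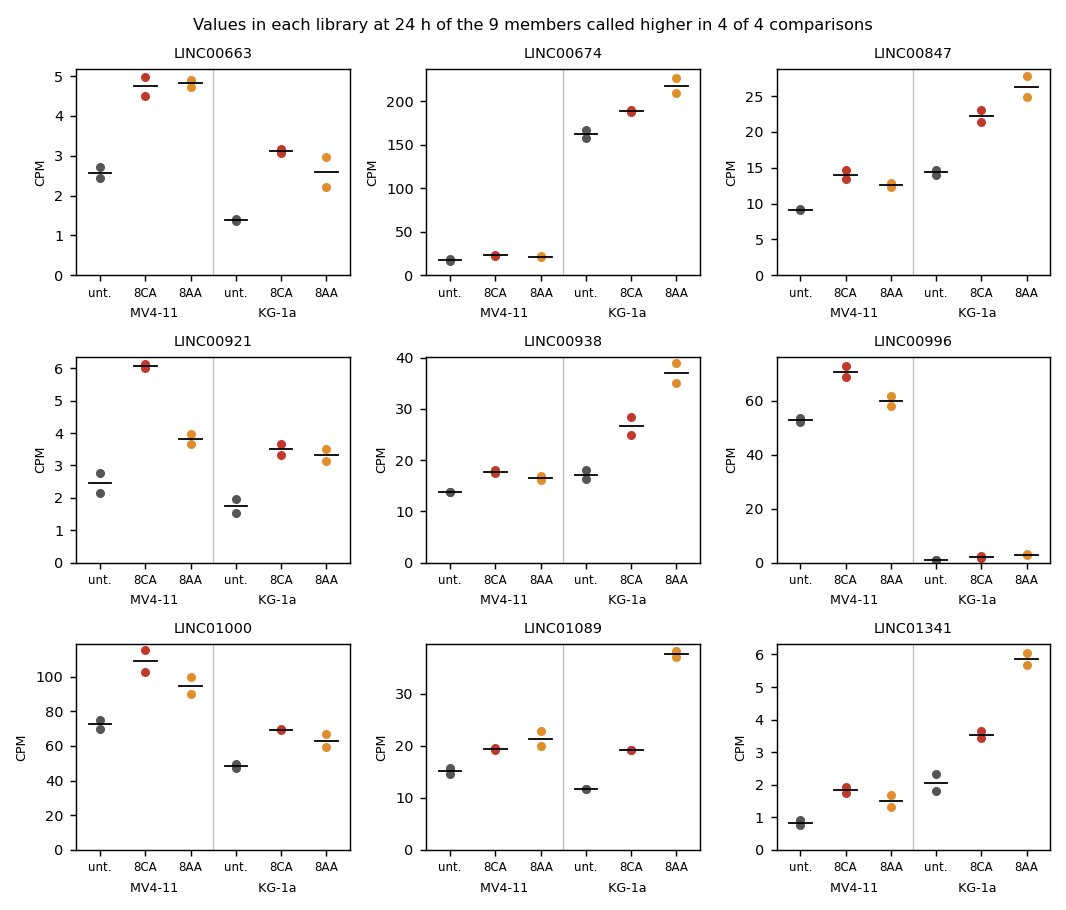
Normalized CPM at 24 h of the 9 members that rose in all 4 comparisons, 1 panel per member; dots are the 2 libraries of a group and short lines their mean, for untreated, 8CA and 8AA cells of MV4-11 and KG-1a. In every panel the treated dots of a line lie above its untreated dots.

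LINC01089, also called LIMT, lies on chromosome 12 (122233173 to 122241390, minus strand in the table's coordinates), 1.248 kb from the histone methyltransferase gene SETD1B. In KG-1a its normalized CPM was 11.6 and 11.7 untreated, 19.1 and 19.2 under 8CA and 37.0 and 38.2 under 8AA. In MV4-11 it was 15.8 and 14.5, then 19.5 and 19.1, then 22.8 and 19.98. The libraries of untreated, 8CA and 8AA cells did not overlap in either line. The log2 fold change (± SE) was 0.71 ± 0.10 under 8CA and 1.69 ± 0.09 under 8AA in KG-1a (adjusted p = 2.02e-05 and 1.1e-09), and 0.35 ± 0.09 and 0.50 ± 0.09 in MV4-11 (adjusted p = 0.00497 and 0.000657). Without MV4-11 untreated replicate B the 8CA call there was lost (adjusted p = 0.0682).

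LINC00996 lies on chromosome 7 (150130742 to 150145228, plus strand), beside GIMAP8 of the GTPases of immunity-associated proteins. It was abundant in MV4-11, where its CPM went from 53.7 and 52.0 to 72.8 and 68.8 under 8CA and 61.9 and 57.9 under 8AA. In KG-1a it was scarce, with 1.01 and 0.816 untreated, 1.82 and 2.28 under 8CA and 2.84 and 3.004 under 8AA. Treated libraries were above untreated ones in each case, by log2 changes of 0.42 ± 0.06 and 0.18 ± 0.06 in MV4-11 (adjusted p = 2.33e-05 and 0.0249) and 1.16 ± 0.26 and 1.67 ± 0.24 in KG-1a (adjusted p = 0.00191 and 3.13e-05). The smallest of these, under 8AA in MV4-11, was lost in 3 of the 4 fits that left out 1 of its libraries.

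LINC00663 lies between zinc finger genes on chromosome 19 (19867181 to 19887222, minus strand). Its CPM in MV4-11 was 2.72 and 2.44 untreated, 4.99 and 4.49 under 8CA and 4.90 and 4.73 under 8AA. In KG-1a it was 1.41 and 1.36, then 3.17 and 3.08, then 2.21 and 2.96. All treated libraries were above the untreated ones of their line. The log2 changes were 0.88 ± 0.18 and 0.90 ± 0.18 in MV4-11 (adjusted p = 0.00105 and 0.00175) and 1.17 ± 0.23 and 0.88 ± 0.24 in KG-1a (adjusted p = 0.000644 and 0.00557), the last lost without KG-1a 8AA replicate B (adjusted p = 0.0568).

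LINC01000 and LINC00674 are the most counted of the 9. LINC01000 went from 75.3 and 70.0 CPM to 116 and 103 under 8CA and 100.03 and 89.8 under 8AA in MV4-11, and from 49.5 and 47.5 to 69.0 and 69.8 and to 59.3 and 66.7 in KG-1a. Its 4 log2 changes of 0.59 ± 0.07, 0.39 ± 0.07, 0.52 ± 0.07 and 0.38 ± 0.07 held without any single library. LINC00674 stood at 16.2 and 18.2 in MV4-11 and at 166 and 157 in KG-1a, and reached 23.5 and 22.3 or 20.8 and 21.9 in the former and 187 and 190.0 or 209 and 226 in the latter. Its changes were 0.41 ± 0.08, 0.31 ± 0.08, 0.22 ± 0.05 and 0.43 ± 0.05, of which the second was lost without MV4-11 untreated replicate A (adjusted p = 0.111).

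LINC00847 on chromosome 5 (180257957 to 180262726) rose in MV4-11 from 9.09 and 9.26 CPM to 14.6 and 13.4 under 8CA and 12.9 and 12.3 under 8AA, and in KG-1a from 14.01 and 14.7 to 23.0 and 21.4 and to 27.8 and 24.8. All 4 calls held without any single library. LINC00938 on chromosome 12 (46119503 to 46121704), which lies 1.916 kb from the chromatin remodeling gene ARID2, went from 16.3 and 18.1 to 24.9 and 28.5 and to 35.1 and 39.0 in KG-1a. In MV4-11 it moved less, from 13.9 and 13.7 to 18.0 and 17.5 and to 16.9 and 16.2, and the 8AA call there was lost without 8AA replicate A (adjusted p = 0.215).

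LINC00921 and LINC01341 were counted at low levels. LINC00921 was 2.15 and 2.75 CPM in untreated MV4-11, 6.02 and 6.13 under 8CA and 3.67 and 3.98 under 8AA, and 1.97 and 1.52, 3.31 and 3.67, and 3.13 and 3.497 in KG-1a. LINC01341 on chromosome 1 (246939315 to 246955685) was 0.750 and 0.903, 1.76 and 1.94, and 1.68 and 1.33 in MV4-11 and 2.32 and 1.79, 3.64 and 3.43, and 5.68 and 6.06 in KG-1a. Groups of treated and untreated libraries stayed apart in all of them. With 8AA in MV4-11, the calls of LINC00921 and LINC01341 were each lost in 3 of the 4 fits that left out 1 library. LINC01341 under 8CA in KG-1a was not called without untreated replicate B.

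LINC00921 overlaps the same-strand gene ZNF263, a zinc finger transcription factor, so their reads may be shared. ZNF263 changed by 0.38 ± 0.06 under 8CA and 0.05 ± 0.06 under 8AA in MV4-11 and by 0.22 ± 0.06 and -0.09 ± 0.06 in KG-1a, less than LINC00921 (1.30, 0.63, 0.99 and 0.91). LINC00847 overlaps HEIH, a non-coding RNA on the opposite strand, which changed by 0.32, 0.10, 0.09 and 0.19 while LINC00847 changed by 0.61, 0.46, 0.63 and 0.88. LINC00663, LINC00674, LINC00938, LINC01089 and LINC01341 overlap no gene.

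**Figure D4:**
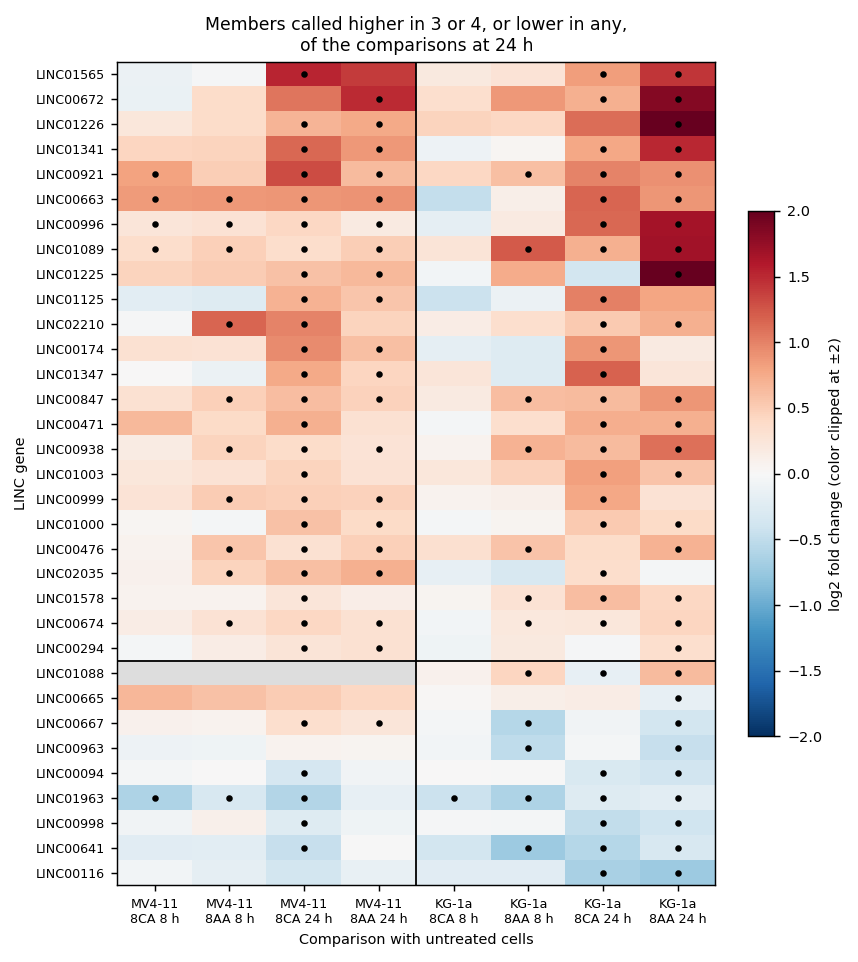
Log2 fold change of the 24 members called higher in 3 or 4 comparisons at 24 h (upper block) and the 9 called lower in at least 1 of them (lower block), 1 column for each of the 8 comparisons at 8 h and 24 h; color runs from blue (lower) to red (higher) and is clipped at 2 on either side, black dots mark calls and gray cells were not tested. The upper block is red throughout its called cells, and in the lower block most called cells lie in the KG-1a columns.

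With these 9 included, 26 of 89 members rose with both drugs in MV4-11 at 24 h and none fell with both (29.2% and 0%, background 9.34% and 11.8%). In KG-1a 30 of 95 rose and 5 fell with both (31.6% and 5.26%, background 13.3% and 15.9%). Of all 102 members, 24 were called higher in 3 or 4 comparisons (background 9.46% of genes tested in at least 1 line), 71 in at least 1 (background 41.2%), 9 were lower in at least 1 (background 38.9%), 2 were both and 24 were called in none (background 26.5%). Those called higher in 3 or 4 include LINC00672, LINC01225 and LINC01226. These passed the filter in MV4-11 or in KG-1a only through 8AA libraries at 24 h. LINC01021, the p53-induced PURPL, was counted almost entirely in MV4-11. Its CPM went from 65.8 and 65.2 to 112 and 95.4 under 8CA and 123 and 96.7 under 8AA, with treated libraries above both untreated ones. The log2 changes were 0.66 ± 0.11 (adjusted p = 0.00015) and 0.75 ± 0.11 (adjusted p = 0.000116), and LINC01021 was higher already at 8 h by 0.45 ± 0.11 and 0.49 ± 0.11 (adjusted p = 0.0189 and 0.0035), of which the 8CA call was lost without untreated replicate A (adjusted p = 0.175).

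LINC01268 (MROCKI), counted almost entirely in KG-1a, had large changes there. It went from 34.8 and 33.0 CPM untreated to 65.1 and 68.3 under 8CA and 74.5 and 89.98 under 8AA, and the 3 groups did not overlap. The log2 changes were 0.97 ± 0.08 (adjusted p = 2.73e-07) and 1.27 ± 0.08 (adjusted p = 9.63e-09). Untreated KG-1a at 8 h had 22.3 and 25.6 CPM of it, below both untreated libraries at 24 h.

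The highest log2 changes under 8AA in KG-1a at 24 h were those of LINC01225 (2.37 ± 0.55), LINC01226 (2.03 ± 0.46), LINC00629 (1.91 ± 0.39), LINC00672 (1.84 ± 0.23) and LINC01004 (1.75 ± 0.16). The first rests on few reads, with 0.151 and 0.163 CPM untreated and 0.585 and 1.13 under 8AA, and so does LINC01226, with 0.403 and 0.272 untreated and 1.09 and 1.77 under 8AA. LINC01004 went from 2.92 and 2.502 to 8.10 and 10.3. LINC01225 had 1 to 4 reads in each KG-1a library other than these, with 14 and 23 reads, and LINC01226 had 3 to 23 against 26 and 36. Both passed the filter on low counts in KG-1a only through the 8AA libraries at 24 h, where they are high, and are given as a description. The other 3 calls held without any single library. Beside LINC00629 (1.43 ± 0.42), the members with the highest changes under 8CA in KG-1a included LINC01126 (1.33 ± 0.31), LINC00662 (1.21 ± 0.16) and LINC01347 (1.18 ± 0.20), of which the last 3 held in every such fit and LINC00629 was lost without untreated replicate B (adjusted p = 0.134). In MV4-11 the highest under 8CA were LINC01565 (1.52 ± 0.58, adjusted p = 0.0454), LINC00921 (1.30 ± 0.18) and LINC01341 (1.15 ± 0.26), and under 8AA LINC00672 (1.49 ± 0.48, adjusted p = 0.0291) and LINC00565 (1.08 ± 0.29). LINC00921 and LINC01341 under 8CA held there without any single library. Over the 4 fits that left out 1 library each, LINC01565 was lost in 2, LINC00672 in 4 and LINC00565 in 3. LINC00672 is protein coding in RefSeq (LASP1NB). It passed the filter in MV4-11 only through its 8AA libraries at 24 h.

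Few members fell at 24 h, and those that did include genes that make small proteins, although more such members rose. Of the 10 members tested in KG-1a that RefSeq does not count as long non-coding, 3 fell with each drug. Under 8CA 5 rose and under 8AA 4, LINC01225 among the latter, which was tested there only through its 8AA libraries. LINC00116 (mitoregulin) and LINC00998 (SMIM30) fell with both drugs in KG-1a, as did LINC00094 (BRD3OS), LINC00641 and LINC01963. LINC00116 went from 11.7 and 10.9 CPM to 7.14 and 7.30 under 8CA and 7.51 and 6.06 under 8AA. All 4 treated libraries were below the untreated ones, by log2 changes of -0.65 ± 0.12 and -0.73 ± 0.12 (adjusted p = 0.000314 and 8.5e-05), and the calls held without any single library. LINC00116 was not called in MV4-11, where it stood at 7.78 and 6.55 untreated, 4.67 and 6.52 under 8CA and 5.96 and 6.91 under 8AA, with overlap in the latter.

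LINC00998 in KG-1a went from 22.7 and 21.2 CPM to 15.7 and 15.3 under 8CA and 16.7 and 16.5 under 8AA, changes of -0.50 ± 0.08 and -0.40 ± 0.08 (adjusted p = 0.00013 and 0.000569) that held without any single library. In MV4-11 it stood at 38.3 and 44.03 untreated, 34.5 and 34.2 under 8CA and 39.1 and 38.8 under 8AA. The 8CA change there of -0.26 ± 0.10 (adjusted p = 0.0442) was not called without untreated replicate B (adjusted p = 0.354), and 8AA libraries lay between the untreated ones. LINC00094 went from 27.7 and 30.5 to 23.1 and 24.2 and to 22.6 and 22.1 in KG-1a, and under 8CA in MV4-11 from 19.5 and 20.3 to 16.6 and 14.98. These treated libraries were all below their untreated ones, with log2 changes of -0.30 ± 0.08, -0.38 ± 0.08 and -0.33 ± 0.08. Without KG-1a untreated replicate B the first was lost (adjusted p = 0.0643), and without MV4-11 8CA replicate B the last (adjusted p = 0.0566).

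LINC00641 and LINC01963 fell in the same 3 comparisons at 24 h. LINC00641 went from 16.8 and 16.9 CPM to 10.7 and 12.1 under 8CA and 12.4 and 14.6 under 8AA in KG-1a, and from 13.6 and 12.6 to 10.1 and 8.85 under 8CA in MV4-11, where 8AA left 13.6 and 12.5. Its log2 changes where called were -0.57 ± 0.14, -0.33 ± 0.13 and -0.47 ± 0.12, of which the second was lost without KG-1a 8AA replicate A (adjusted p = 0.193) and the third without MV4-11 8CA replicate B (adjusted p = 0.0623). LINC01963 went from 39.5 and 37.2 to 33.6 and 30.3 and to 34.3 and 31.6 in KG-1a, and from 9.18 and 9.21 to 6.14 and 6.04 under 8CA in MV4-11. Only the last of these calls of LINC01963 (-0.59 ± 0.11, adjusted p = 0.000392) held without any single library: under 8CA in KG-1a it was lost without 8CA replicate B (adjusted p = 0.0977) and under 8AA without untreated replicate A (adjusted p = 0.119).

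At 24 h, 2 members were called in opposite directions between comparisons, the second of them on a call that few settings kept. LINC00667 rose in MV4-11 from 32.6 and 33.4 CPM to 41.7 and 41.6 under 8CA and 40.2 and 37.8 under 8AA. In KG-1a it stood at 76.1 and 74.8 untreated, 69.1 and 75.5 under 8CA and 57.6 and 59.3 under 8AA. The log2 changes were 0.34 ± 0.06 and 0.24 ± 0.06 in MV4-11 (adjusted p = 0.000303 and 0.00668), -0.06 ± 0.06 under 8CA in KG-1a (adjusted p = 0.381) and -0.37 ± 0.06 under 8AA in KG-1a (adjusted p = 5.58e-05). LINC01088, found in KG-1a, went from 63.1 and 60.9 to 98.8 and 92.4 under 8AA (0.63 ± 0.06, adjusted p = 2.79e-07), and stood at 55.1 and 56.0 under 8CA. The 8CA change of -0.16 ± 0.06 (adjusted p = 0.0381) was not called in 9 of 12 other settings. Among these were all 4 fits that left out 1 of its libraries, so a fall under 8CA is not established.

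At 8 h fewer members were called than at 24 h in each of the 4 comparisons. In MV4-11, 9 members rose and 1 fell under 8CA (background 4.58% higher and 5.77% lower), and 23 rose and 1 fell under 8AA (background 13.6% and 15.6%). In KG-1a, 8CA raised none and lowered 1 (background 0.7% and 0.181%), and 9 members had an unadjusted p under 0.05 while DESeq2 also called 1. With 8AA, 16 rose and 9 fell in KG-1a (background 16.7% and 18%). The median log2 change was 0.14 and 0.29 in MV4-11 and -0.02 and 0.12 in KG-1a. These counts leaned on single libraries: 8CA in MV4-11 called 2 without untreated replicate A or 4 without any other one of its libraries in place of 10, 8AA in MV4-11 13 without untreated replicate A or 8AA replicate B in place of 24, and 8AA in KG-1a 16 without untreated replicate A or 15 without 8AA replicate B in place of 25. The 1 call under 8CA in KG-1a was absent without untreated replicate A or either 8CA library.

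LINC01963 fell at 8 h with both drugs in both lines. Its CPM was 12.7 and 11.5 untreated, 7.85 and 7.90 under 8CA and 10.1 and 9.37 under 8AA in MV4-11. In KG-1a it was 38.2 and 36.2, 28.0 and 27.2, and 24.9 and 23.7. Treated libraries were below untreated ones throughout. The log2 change was -0.62 ± 0.10 and -0.32 ± 0.10 in MV4-11 and -0.43 ± 0.07 and -0.61 ± 0.07 in KG-1a, where under 8CA it was the only member called. Without MV4-11 untreated replicate A the second was lost (adjusted p = 0.17), and without KG-1a 8CA replicate B the third (adjusted p = 0.153).

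LINC01011 had the largest early rise among those called under 8AA in KG-1a. From 1.70 and 1.12 CPM it went to 5.78 and 4.53 at 8 h, and stood at 1.24 and 1.56 under 8CA. At 24 h it was 1.51 and 1.85 untreated, 1.96 and 2.38 under 8CA and 5.80 and 4.43 under 8AA. The 8AA libraries stood apart from all others of KG-1a, with log2 changes of 1.88 ± 0.24 at 8 h and 1.62 ± 0.23 at 24 h (adjusted p = 2.19e-05 and 2.48e-05). LINC01011 overlaps the same-strand gene NQO2, a quinone reductase, whose change under 8AA in KG-1a was 0.07 ± 0.07 at 8 h and -0.15 ± 0.07 at 24 h. In MV4-11 LINC01011 rose at 8 h from 1.05 and 0.831 to 1.73 and 1.96 under 8CA and 1.82 and 2.06 under 8AA. The 8CA call there was lost in all 4 fits that left out 1 of its libraries. The 8AA call was lost in 1, that without untreated replicate B.

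Also under 8AA in KG-1a at 8 h, LINC01089 went from 7.68 and 9.22 CPM to 20.3 and 19.5 (1.23 ± 0.10, adjusted p = 3.63e-07) and LINC01268 from 22.3 and 25.6 to 44.01 and 44.95 (0.89 ± 0.09, adjusted p = 3.16e-06). LINC00641 fell there from 13.8 and 19.02 to 9.31 and 10.6 (-0.73 ± 0.14, adjusted p = 0.000685). These calls held without any single library, unlike those of LINC00304 (-1.38 ± 0.44), LINC01547 (-1.16 ± 0.25), LINC00638 (-1.08 ± 0.26) and LINC00467 (-0.78 ± 0.24), the other named members that fell. LINC00304 was lost without untreated replicate A (adjusted p = 0.222), LINC01547 and LINC00638 without untreated replicate B (adjusted p = 0.0585 and 0.0724) and LINC00467 without 8AA replicate B (adjusted p = 0.163).

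The change of response from 8 h to 24 h was tested as an interaction. In KG-1a the response to 8CA was higher at 24 h for 19 members and lower for 2 (background 11.2% and 12.7%), and that to 8AA for 21 and 4 (background 7.64% and 10.7%). In MV4-11 it was higher for 6 and lower for none under 8CA (background 6.48% and 9.83%), and higher for 1, LINC01000, and lower for none under 8AA (background 2.51% and 2.12%). LINC00663 gained the most under 8CA in KG-1a, where its CPM at 8 h was 1.59 and 1.80 untreated and 1.09 and 1.35 under 8CA. Its response was higher at 24 h by 1.65 ± 0.36 (adjusted p = 0.00346). LINC01341 gained 1.46 ± 0.31 under 8AA in KG-1a (adjusted p = 0.00446), from 2.25 and 1.504 untreated against 1.79 and 2.03 at 8 h. Both held without any single library. The counts themselves did not: for KG-1a under 8CA, 21 became 10 without untreated replicate B at 24 h, 11 without 8CA replicate A at 8 h or replicate B at 24 h and 12 without untreated replicate A at 8 h. For KG-1a under 8AA, 25 became 10 to 14 without any 1 of the 4 untreated libraries or of the 8AA libraries at 8 h, and for MV4-11 under 8CA, 6 became 1 without untreated replicate B at 8 h or 8CA replicate A at 24 h.

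Untreated cells changed little between the times. In MV4-11, 2 of the 89 members differed at 24 h from 8 h, LINC01128 (-0.69 ± 0.19) and LINC01963 (-0.39 ± 0.10), both lower, where 5.54% of all genes were called either way. In KG-1a, 4 of 95 were higher (background 4.45%): LINC01268 (0.50 ± 0.09), LINC01089 (0.46 ± 0.11), LINC01088 (0.42 ± 0.06) and LINC00664 (0.36). None of the MV4-11 calls stayed without any single one of these libraries, and in KG-1a only that of LINC01088 did.

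Set against each other at the same dose of 1 µM and the same time, most calls between the drugs were in KG-1a, among the members as among all genes. The analogs differ at position 8 of the purine, which carries chlorine in 8CA and an amino group in 8AA. In all, 368 pairs of member levels were compared, with p-values adjusted over all genes. In KG-1a at 24 h, 24 members were higher under 8AA than under 8CA and 14 lower (background 20.3% and 21.7%). The 24 include LINC01225, which was tested there only through its 8AA libraries at 24 h. At 8 h, 14 were higher and 5 lower (background 14.7% and 15.8%). In MV4-11 at 24 h, 5 were higher and 4 lower (background 11.7% and 9.48%), and at 8 h 2 were higher, LINC00324 and LINC00476, and none lower (background 2.96% and 3.7%). In MV4-11 the 9 calls at 24 h became 3 without replicate A of either drug and 4 without 8AA replicate B, and the 2 at 8 h became 0 without 8CA replicate B. In KG-1a the 19 calls at 8 h became 12 without either 8CA library.

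**Figure D5:**
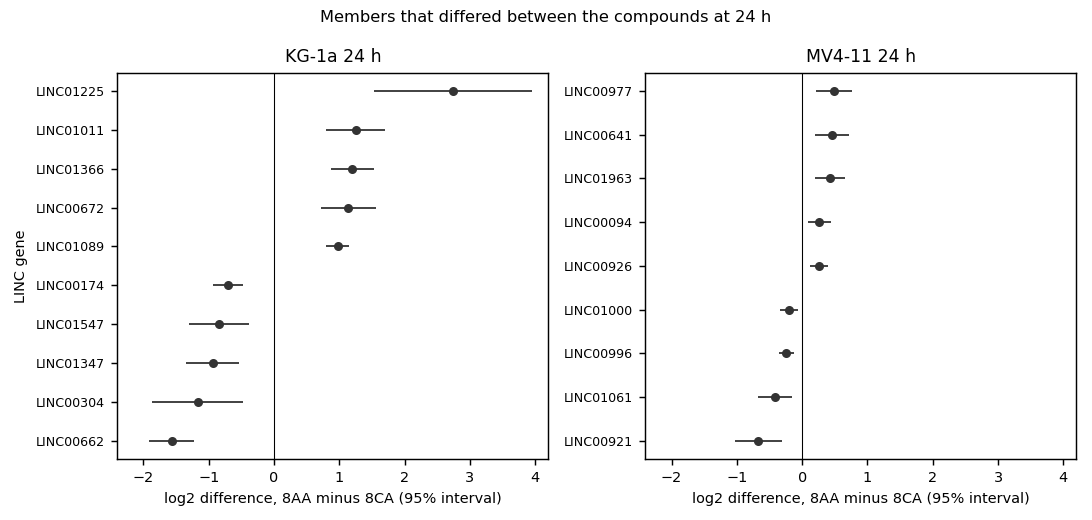
Difference between 8AA and 8CA (log2, 8AA minus 8CA) at 24 h with its 95% interval for the 5 highest and 5 lowest called members in KG-1a and the 9 called in MV4-11; values right of 0 are higher under 8AA. In KG-1a LINC01225 (tested there only through its 8AA libraries), LINC01011 and LINC01089 lie to the right and LINC00662 and LINC00304 to the left, and the MV4-11 differences lie nearer to 0.

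LINC01089 showed the difference at both times in KG-1a, under 8AA above 8CA by 0.97 ± 0.10 at 8 h (adjusted p = 3.15e-06) and 0.97 ± 0.08 at 24 h (adjusted p = 1.72e-07). In MV4-11 at 24 h its difference was 0.15, with a 95% interval from -0.03 to 0.33. LINC01011 was higher under 8AA in KG-1a by 1.88 ± 0.23 at 8 h and 1.25 ± 0.21 at 24 h. LINC01366 reached 6.18 and 6.65 CPM under 8AA at 24 h, against 2.85 and 2.73 under 8CA and 3.38 and 3.64 untreated, a difference of 1.20 ± 0.15 between the drugs (adjusted p = 1.98e-05).

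LINC00662 was the clearest case in the other direction. In KG-1a at 24 h it had 5.55 and 3.75 CPM untreated, 10.8 and 10.9 under 8CA and 3.21 and 4.14 under 8AA. The 8CA libraries stood above the rest, and 8AA was lower than 8CA by a log2 difference of -1.57 ± 0.16 (adjusted p = 2.14e-06). LINC01347 (-0.94 ± 0.19), LINC01547 (-0.84 ± 0.21) and LINC00174 (-0.71 ± 0.11) were also lower under 8AA. These calls in KG-1a at 24 h held without any single library, unlike that of LINC00304 (-1.17 ± 0.33, adjusted p = 0.0545 without 8CA replicate A). In MV4-11 at 24 h, LINC00921 (-0.67 ± 0.17), LINC00996 (-0.24 ± 0.06) and LINC01000 (-0.20 ± 0.06) were lower under 8AA and LINC00641 (0.46 ± 0.12) and LINC01963 (0.43 ± 0.11) higher, all calls that some single library could remove.

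For most pairs no difference was called, and the intervals say how much could be missed. Of the 80 pairs not called in MV4-11 at 24 h, the 95% interval of the log2 difference stayed within 1 of 0 for 60 and within 0.5 for 32, with a median width to either side of 0.41. Of the 57 in KG-1a at 24 h, it did so for 47 and 17. At 8 h, 70 of 87 stayed within 1 in MV4-11 and 54 of 76 in KG-1a. LINC00663 differed by 0.02 in MV4-11 at 24 h (interval from -0.32 to 0.36) and by -0.29 in KG-1a (interval from -0.70 to 0.13), and LINC01021 by 0.09 in MV4-11 (interval from -0.13 to 0.31). A p that misses the threshold does not show that the drugs act alike on these genes.

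The lines differed in response for more members under 8AA than under 8CA, by counts of 13 and 3 at 24 h, as they did for all genes. With 8CA the response in MV4-11 was higher for 1 member and lower for 2 (members 0.98% and 1.96%, background 5.76% and 5.44%). Under 8AA it was higher for 6 and lower for 7 (members 5.88% and 6.86%, background 13.8% and 8.51%). The member shares were thus below the background. Of the 102 members tested, 7 passed the filter on low counts in MV4-11 only and 13 in KG-1a only, which limits such calls. LINC00667 had the higher response in MV4-11 with both drugs, by 0.42 ± 0.08 and 0.63 ± 0.08 (adjusted p = 0.000742 and 2.45e-06). With 8AA, LINC00996 (-1.46 ± 0.21), LINC01004 (-1.41 ± 0.29) and LINC01089 (-1.17 ± 0.12) responded more in KG-1a. LINC01547 ran the other way (1.42 ± 0.32): its CPM went from 1.22 and 1.17 to 2.12 and 2.41 in MV4-11 and from 2.82 and 2.99 to 2.34 and 1.77 in KG-1a. Treated and untreated libraries were apart in both lines, on opposite sides, but the fall in KG-1a was not called. These 5 held without any single library.

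Other long non-coding genes of RefSeq also leaned upward at 24 h. Of 429 tested in MV4-11, 26.6% rose and 5.59% fell under 8CA and 20% and 2.33% under 8AA, with a median log2 change of 0.22 and 0.24. Of 445 in KG-1a, 29.9% and 5.39% were called under 8CA and 42.2% and 8.09% under 8AA, with medians of 0.33 and 0.40. Protein-coding genes showed no such lean, with 20.8% higher and 24.4% lower under 8CA in MV4-11 and 24.3% and 28.4% under 8AA in KG-1a. Among members that RefSeq counts as long non-coding, the shares for these 2 comparisons were 42.5% and 2.5%, and 49.4% and 5.88%. Other genes of a different RefSeq type or of none leaned upward too. Of 571 in MV4-11, 21.7% rose and 3.68% fell under 8CA and 16.6% and 1.05% under 8AA. Of 570 in KG-1a, it was 25.3% and 6.84%, then 30.2% and 7.54%. The classes were not matched for level: of all genes from 2 to 4 in log2 CPM, 26.3% rose and 14.5% fell under 8CA in MV4-11. Of the 10 members of another RefSeq type tested in KG-1a, the same 3, LINC00094, LINC00116 and LINC00998, fell with each drug, and 5 rose under 8CA and 4 under 8AA. The 4 include LINC01225, which was tested in KG-1a only through its 8AA libraries at 24 h.

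A fixed list of 30 well-known long non-coding RNAs outside the LINC names gave 25 tested in MV4-11 and 24 in KG-1a. At 24 h, 5 rose and 3 fell under 8CA and 6 and 1 under 8AA in MV4-11, and 9 and 4 and then 11 and 4 in KG-1a. The background, in that order, was 21.2% and 22.7%, 13.9% and 15.3%, 23.4% and 24%, and 25.4% and 26.6%. At 8 h the counts were 1 and 1, 3 and 2, 0 and 0, and 7 and 2 in the same order. The background there was 4.58% and 5.77%, 13.6% and 15.6%, 0.7% and 0.181%, and 16.7% and 18%. MIAT rose by 1.49 under 8AA in KG-1a at 24 h, whereas MIR17HG, the host of a cluster of proliferation microRNAs, fell by 0.92. The list was chosen with results of these libraries in view.

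The nuclear exosome, which degrades many lincRNAs, and Integrator, which ends transcription of many of them, were read as lists. Of 20 exosome and adaptor genes, at 24 h 4 rose and 9 fell under 8CA and 2 and 8 under 8AA in MV4-11, and 3 and 6 and then 3 and 12 in KG-1a, with medians of -0.13, -0.13, -0.07 and -0.23. The background of lower calls in these comparisons was 22.7%, 15.3%, 24% and 26.6% of all genes, and that of higher calls 21.2%, 13.9%, 23.4% and 25.4%. EXOSC2, a cap subunit, fell with all 4, by 0.61, 0.29, 0.35 and 0.62 on the log2 scale, and the adaptor ZFC3H1 rose by 0.27, 0.25 and 0.33 in all but 8CA in KG-1a, where its change was 0.17 (adjusted p = 0.0501). At 8 h, 1 rose and 1 fell under 8CA and 1 and 12 under 8AA in MV4-11, and 0 and 0 and then 2 and 8 in KG-1a. Of 14 Integrator genes, 3 rose and 4 fell, 1 and 3, 2 and 4, and 2 and 6 at 24 h, and 0 and 0, 0 and 2, 0 and 0, and 0 and 5 at 8 h. In that order the background at 8 h was 4.58% higher and 5.77% lower, 13.6% and 15.6%, 0.7% and 0.181%, and 16.7% and 18%. The part of these genes in the lincRNA levels was not tested.

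Where a member lies beside or over another gene, both were set side by side. Of 25 members in MV4-11 and 27 in KG-1a with a tested neighbor that overlaps them or starts within 1000 bases head to head, 10, 9, 7 and 13 rose at 24 h in MV4-11 under 8CA, MV4-11 under 8AA, KG-1a under 8CA and KG-1a under 8AA. A neighbor rose too for 4, 0, 3 and 3 of these, a neighbor fell for 1, 0, 0 and 2, and no neighbor was called for 5, 9, 4 and 8, where 21.2%, 13.9%, 23.4% and 25.4% of all genes rose. LINC01578, also called CHASERR, shares its strand with CHD2, a chromatin remodeler that it is known to repress in cis, and the table's positions overlap. LINC01578 changed by 0.24, 0.13, 0.62 and 0.42, and CHD2 by 0.88 ± 0.04, 0.29 ± 0.05, 1.15 ± 0.04 and 0.61 ± 0.04. LINC01126, head to head with the RNA-binding protein gene ZFP36L2, changed in KG-1a by 1.33 under 8CA and 1.28 under 8AA, and ZFP36L2 by 0.14 and 0.62. LINC00667 and LINC00526 start head to head 0.071 kb apart, and under 8AA in KG-1a LINC00526 changed by 0.34 ± 0.17 (adjusted p = 0.109) where LINC00667 fell.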

How the data were processed

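RNA from 24 libraries of MV4-11 and KG-1a cells, 12 groups of 2, was extracted as total RNA with the RNeasy Micro Kit. The deposited table holds raw read counts per gene that the authors made, with gene positions and exon lengths. The submitters' processing notes name Trimmomatic, STAR 2.6.0, HTSeq 0.11.1 and edgeR, and builds hg19 and hg38 without roles. Table positions run past chromosome ends of hg38. Of the library kit, the annotation and the strand setting nothing is given in the sources used here. Missing poly(A) selection or depletion details bear on lincRNAs, since transcripts without a tail would be lost in poly(A) selection.

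The members and all lists were chosen with earlier results of these data known. Counts were fitted with edgeR 4.0.16 in R 4.3.3 (filterByExpr with a minimum count of 10, TMM scaling, quasi-likelihood test), per line on 12 libraries, and on all 24 for contrasts between lines. Benjamini-Hochberg adjustment ran over all genes tested, 12800 in MV4-11, 12711 in KG-1a and 14055 in the joint fit, and a call needed adjusted p below 0.05. The script was tested on simulated data. CPM per library are TMM-scaled. Levels per kb divide by exon length. Intervals of 95% come from the fitted standard errors, and floors of 3 counts cover counting error only. Lists read beside the members were exosome, Integrator and other long non-coding RNA genes.

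Named at 24 h were the 10 called members with the highest and the 10 with the lowest changes in each comparison, those called the same way in all 4, and at 8 h the 5 and 5. For levels per kb these were the 8 highest in each line, for the untreated lines the 6 and 6 largest differences, for the drugs the 5 and 5, and for differences between responses the 3 and 3. LINC00526, LINC00664, LINC01011 in MV4-11 and other values outside that rule were chosen after their values were seen. Alternatives were library size, DESeq2 and upper-quartile scaling, other count filters, DESeq2 1.42.0, the replicate letter as a block, a fold minimum, member subsets and leaving out each library. A library named for a lost call is not always the only one whose removal loses that call. Values of any member on chromosome Y are not named.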

Additional observations from a re-analysis of the deposited data

Results flagged for a closer look

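The values below were picked out because the response to a drug differed between times or between lines by the test of that difference in edgeR (quasi-likelihood, Benjamini-Hochberg adjusted over all genes). Each is a difference of log2 fold changes.

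With 8CA in MV4-11 the response at 24 h exceeded that at 8 h for LINC00852 (0.97), LINC01347 (0.76) and LINC00174 (0.65), and with 8AA for LINC01000 (0.42). With 8CA in KG-1a it was higher at 24 h for LINC00663 (1.65), LINC00304 (1.56) and LINC00996 (1.34) and lower for LINC00998 (-0.48) and LINC01088 (-0.25). With 8AA in KG-1a it was higher for LINC00996 (1.49), LINC01341 (1.46) and LINC01565 (1.15) and lower for LINC00116 (-0.50), LINC00094 (-0.36) and LINC00998 (-0.36). Of these 15, LINC00663 and LINC00998 with 8CA and LINC01341 with 8AA in KG-1a were called without any single library.

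Between the lines, as MV4-11 minus KG-1a at 24 h, the response to 8CA differed for LINC00667 (0.42), LINC00662 (-0.94) and LINC00909 (-0.49). The response to 8AA differed for LINC01547 (1.42), LINC02035 (0.77), LINC00667 (0.63), LINC00996 (-1.46), LINC01004 (-1.41) and LINC01089 (-1.17). LINC02035 was lost without MV4-11 8AA replicate A (adjusted p = 0.0566), and with 8CA only LINC00667 was called without any single library.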

How the results depend on the processing

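No direction of a named member reversed under any setting, and 93 of 178 named values stayed called in all of them. Over the fits that each left out 1 library, the called members ranged for MV4-11 at 24 h from 26 to 32 with 8CA and 15 to 24 with 8AA, for KG-1a from 36 to 40 and 42 to 52, at 8 h for MV4-11 from 2 to 4 and 13 to 22, and for KG-1a from 0 to 1 and 15 to 24. For 8AA against 8CA the ranges were 3 to 7 (MV4-11) and 30 to 39 (KG-1a) at 24 h and 0 to 2 and 12 to 14 at 8 h. For 24 h minus 8 h they were 1 to 6 and 0 to 1 in MV4-11 with 8CA and 8AA and 10 to 17 and 10 to 25 in KG-1a, for untreated time 0 to 0 and 1 to 3, for the untreated lines 88 to 91, for the response between lines 2 to 3 and 10 to 14, and for all 4 comparisons 4 to 11.

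DESeq2's Wald test called 25 and 17 members in MV4-11 at 24 h with 8CA and 8AA, 4 and 11 at 8 h, 16 with 8AA in KG-1a at 8 h, 3, 1 and 12 for 8AA against 8CA in MV4-11 at 24 h and 8 h and KG-1a at 8 h, 2 for the 8CA times in MV4-11, 10 and 8 for the 8CA and 8AA times in KG-1a, 0 for untreated time in MV4-11 and 4 in all 4 comparisons. It often gave an adjusted p to fewer members than edgeR, such as 49 with 8CA in MV4-11 and 62 with 8CA in KG-1a at 8 h. A log2 change of at least 1 left 3, 2, 8 and 17 at 24 h (MV4-11 8CA and 8AA, then KG-1a), 0, 2, 0 and 6 at 8 h, 0, 6, 1 and 2 for the drugs (24 h then 8 h, MV4-11 first), 0, 0, 4 and 7 for the times, 0 and 0 for untreated time, 60 for the lines, 0 and 5 for the response between lines and 0 in all 4. Members overlapping no other gene by the table gave 17, 18, 25 and 29 at 24 h, 5, 13, 0 and 15 at 8 h, 4 and 1 for the drugs in MV4-11, 2, 0, 12 and 15 for the times, 0 for untreated MV4-11, 47 for the lines, 6 for the 8AA response between lines and 5 in all 4, from 55 members; every row of the table counted as a gene here, including the 37 that join separate loci. Members of 1000 or more reads gave 1 for the drugs in MV4-11 at 8 h and 60 for the lines. With no count filter, 8CA in KG-1a at 8 h gave 4. Library size alone gave 1 for untreated MV4-11. Under no filter, library size alone and 10 counts in every library, the 8AA times in MV4-11 gave 2, and the last filter gave 49 for the lines. The shares over all genes are not given for the counts in this paragraph, which are a description only.

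The replicate block, with the letter as a covariate, gave 2 for 8CA in KG-1a at 8 h and 2 for the 8AA times in MV4-11 and moved no other count by over 1.5 times. Pairing by letter was weak at most by this measure. Deviations correlated from -0.117 to 0.159 (median 0.0784) over 15 pairs of groups in MV4-11, 6 of them over 0.1. In KG-1a they correlated from -0.0846 to 0.161 (median 0.0244), 2 of them over 0.1. Scaling by library size alone moved the median of all genes from 0.0134 to 0.108 with 8AA in KG-1a at 24 h and raised the share of all calls that were higher from 48.8% to 64.5%, and in MV4-11 from 47.6% to 63.8% with 8AA and from 48.2% to 58.9% with 8CA. Of the called members, 81% to 100% were higher at 24 h under every setting run. Of all called genes, 42.2% to 64.5% were, the fold minimum not included. At these depths scarce members limit precision, and 13 members in MV4-11 and 7 in KG-1a went untested.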
